A study of Mus musculus with 12 samples.

Results

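The change in gene expression between 1 h and 22 h was compared between 3 stable shRNA lines of the mouse pro-erythroblast line I/11: scr, which carries a scrambled hairpin, and sh14 and sh133, which carry different hairpins against Plcg1, labelled "PLCy1 sh" with the number that also names the line. In what follows, the response of a gene is its log2 signal at 22 h minus that at 1 h in a line, and the response difference is the response of a hairpin line minus that of scr. Members are genes whose response difference was at least 2-fold (1 on the log2 scale) in the same direction in both hairpin lines. They numbered 108 of 12673 genes, 0.852%, with 84 positive differences (0.663%) and 24 negative ones (0.189%). In the scr line 51 of the 108 were at least 2-fold lower at 22 h than at 1 h. Among them were the immediate early genes Egr1, Jun and Klf6, the thioredoxin-binding protein gene Txnip and the linker histone gene H1f2. That the hairpin responses of such members were less negative, or positive, is largely set by the rule, and the same scr arrays enter both differences. Of the genes named here only H1f2 passed the slope test for both hairpins, described further on.

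All 12 arrays of the series were used, 4 in each line at 1, 6, 12 and 22 h, with 1 array for each line and time. I/11 cells are immature erythroid progenitors from fetal liver of mice lacking p53. They were kept in expansion medium with erythropoietin, stem cell factor and dexamethasone, per the labels' protocols, and were infected with lentivirus of the pLKO vector, which also carries puromycin resistance. All 3 lines share that cell line, that vector and that medium, and differ in the hairpin. What the hours were counted from, whether a change of medium started them, and whether a line is 1 clone or a pool are not stated in the labels. Both the 1 h and the 22 h array of a line carry the same date in their titles, so a response does not cross dates. The 6 h and 12 h arrays of sh133 carry the other of the 2 dates, that of all sh14 arrays, and the meaning of the dates is not stated. All scr arrays carry the date of the 1 h and 22 h arrays of sh133. The response difference of sh14 therefore compares lines across dates, and a time course particular to a date cannot be told apart from it. The title date term of the slope test, described further on, is the same at every time and does not remove this.

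Plcg1 encodes phospholipase Cγ1, which is recruited to activated growth factor receptors and cleaves a membrane lipid into diacylglycerol and inositol trisphosphate. Diacylglycerol activates protein kinase C and the Ras exchange factors of the RASGRP family, and inositol trisphosphate releases calcium from internal stores. Immediate early genes such as Egr1 and Jun are switched on within minutes of growth factor signalling and shut off again, and in erythroid progenitors the balance between signals from the erythropoietin receptor and from Kit sets whether cells divide or mature. Maturing erythroid cells build up hemoglobin, heme enzymes and membrane proteins such as band 3 while progenitor genes such as Kit and Myb decline.

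Erythroid regulators were bright in every line. Gata1 lay between 7.73 and 8.62 and Klf1 between 8.26 and 10.15 (log2 signal) over the 12 arrays. Of 18 macrophage and neutrophil markers on the array, 12 were below the highest array median of 1.92 on every array, among them Adgre1, Itgam and Mpo, and the summed linear signal of the list lay between 49.8 and 63.6 in all 3 lines. Of 11 lymphoid markers 6 were below it on every array, with sums between 30.3 and 34.4. The megakaryocyte and platelet list, which holds 5 of the members, is described with them. Array medians lay between 1.84 and 1.92. The gap between 3' and 5' actin probe sets, a sign of RNA quality, went from 0.56 at 1 h to 0.63 at 22 h in scr, from 0.58 to 0.53 in sh14 and from 0.53 to 0.34 in sh133; its part in the results was not tested. Because every response rests on 1 array at each end, it has no replicate error, and the 2-fold limit is a rule of size, not a test. In these samples of whole cultures, fewer cells of a type and less RNA per cell cannot be told apart.

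Past 2-fold, more genes were lower at 22 h than higher in scr, and the reverse held in sh14. Without that limit 6803 of the 12673 genes were higher at 22 h in scr and 6524 in sh14. In scr 185 genes (1.46%) had a positive response past 2-fold and 373 (2.94%) a negative one. The counts were 286 (2.26%) and 169 (1.33%) in sh14, and 221 (1.74%) and 246 (1.94%) in sh133. Across the 12673 genes the responses of scr correlated with those of sh133 at Pearson's r = 0.67 and with those of sh14 at 0.41, and the 2 hairpin lines at 0.62; this is across genes, which are not independent. Taken 1 line at a time, 486 genes (3.83%) had a positive and 167 (1.32%) a negative difference past 2-fold in sh14, and 146 (1.15%) and 66 (0.521%) in sh133. The same scr arrays enter both differences, so the agreement of the hairpin lines in sign is not independent evidence.

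**Figure D1:**
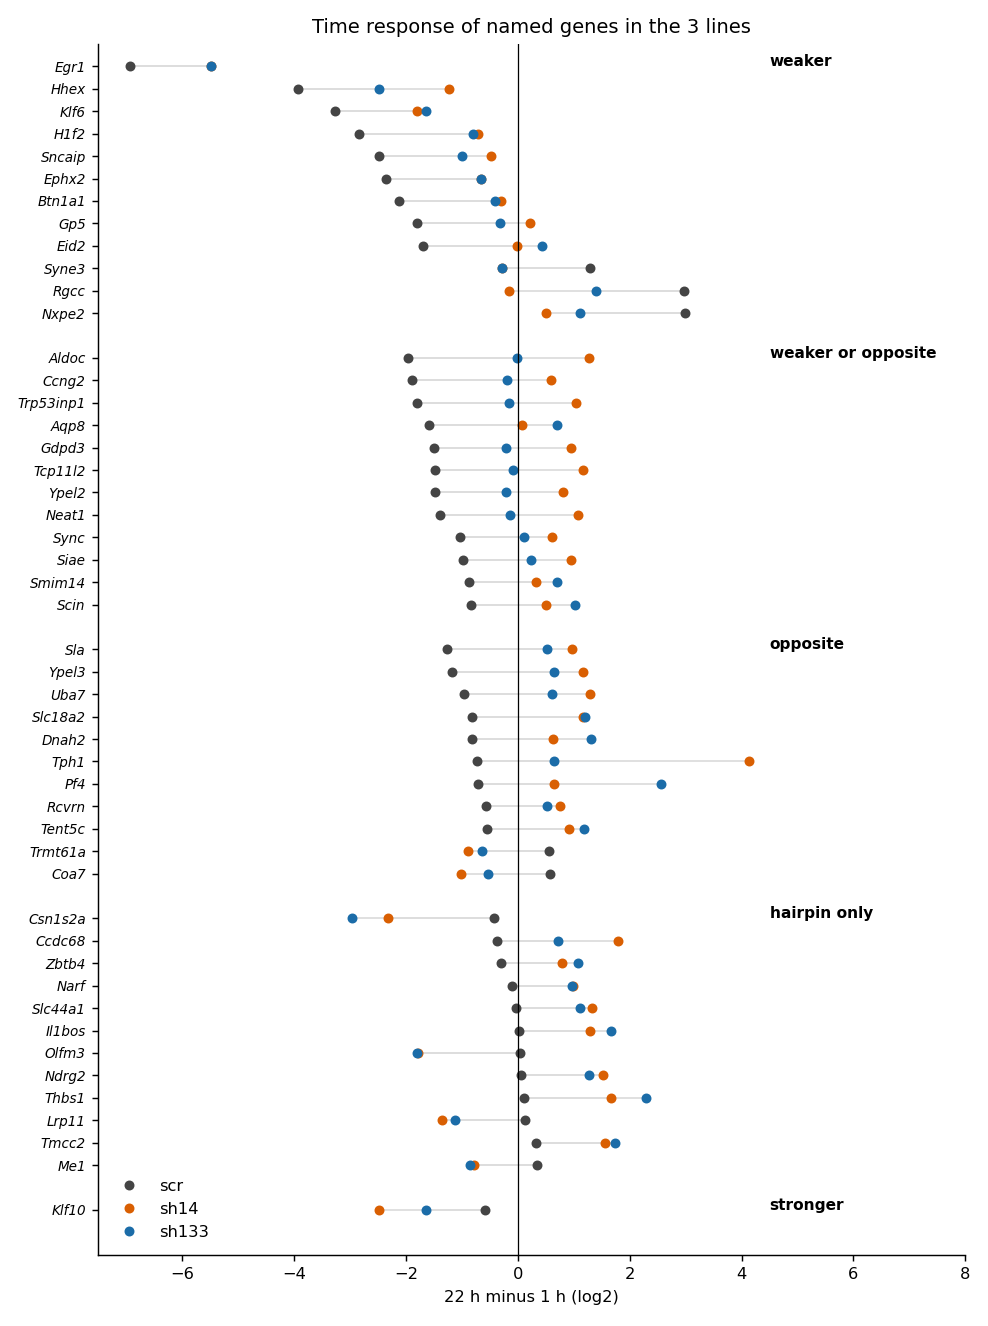
Response of each named gene, 22 h minus 1 h in log2 signal (x axis), in scr (dark), sh14 (orange) and sh133 (blue), with genes (y axis) grouped by class and each point the difference of 2 arrays. In the groups called weaker and weaker or opposite the dark point lies farther from 0 than both coloured points in every gene plotted but Scin, where the sh133 response of 1.02 exceeds in size the -0.84 of scr.

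The members fell into classes by their 3 responses, a response under 0.5 in size being called flat. In 56 genes both hairpin responses were weaker than that of scr without turning past 0.5 the other way (42 negative in scr, 14 positive), with median responses over the class of -1.25 (scr), -0.01 (sh14) and -0.10 (sh133). A further 24 genes (21 negative in scr) lay between these classes, with at least 1 hairpin response of 0.5 or more in the other direction but not both, with medians of -1.0, 0.72 and 0.04. In 11 genes (9 negative in scr) both hairpin lines responded the other way by at least 0.5, with medians of -0.73, 0.92 and 0.64. In 15 genes the response was flat in scr, with 11 positive and 4 negative differences. Among members not flat in scr, only 2 genes, Klf10 and the predicted gene Gm20161, had stronger responses of the same sign in both hairpin lines. Of the 51 members past 2-fold lower in scr, 4 were also past 2-fold lower in sh14 and 7 in sh133.

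Members' distances from scr were read at each time. At 1 h the median of the positive members lay below scr by -0.73 in sh14 and by -0.54 in sh133, and 15 and 11 of the 84 were above scr. At 22 h the medians were 0.96 and 0.75 above scr, with 74 and 75 of the 84 above. For the 24 negative members the medians went from 0.36 to -1.23 in sh14 and from 0.37 to -0.87 in sh133, and over all genes tested they stayed between -0.01 and 0.04 at every time. The distance from scr changed sign between 1 h and 22 h in 59 of the 84 positive members in sh14 and in 64 in sh133. It was larger at 22 h than at 1 h in 47 and 48 of them. The rule itself builds in a shift of at least 2-fold in the difference from scr between 1 h and 22 h. These values at 1 h and 22 h are therefore a description of the members and support nothing.

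**Figure D2:**
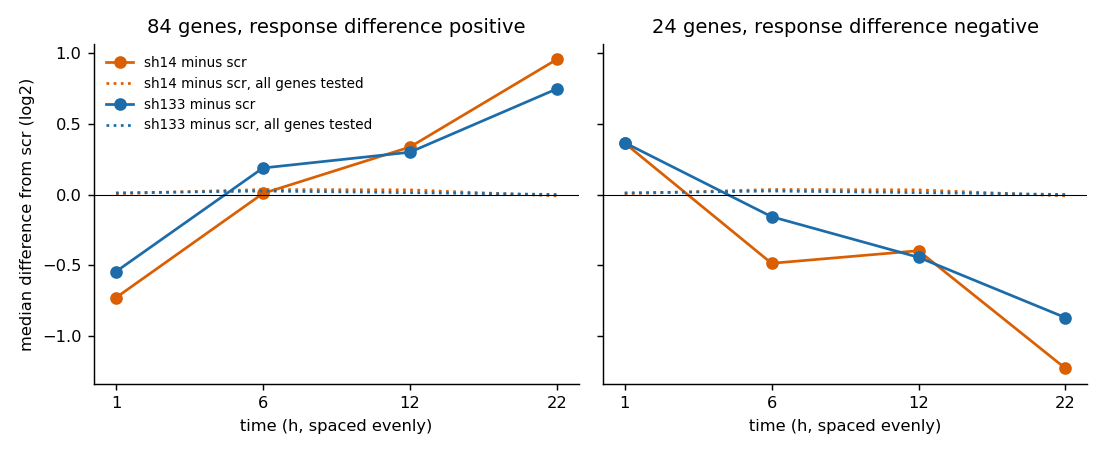
Median log2 difference from scr (y axis) at 1, 6, 12 and 22 h (x axis, spaced evenly) for the 84 positive members (left) and the 24 negative members (right), for sh14 (orange) and sh133 (blue), with dotted lines for all genes tested. The medians of the members had crossed the level of scr by 6 h in both lines. For the positive members in sh14 the median went from -0.73 at 1 h to 0.01 at 6 h and 0.96 at 22 h.

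The 6 h and 12 h arrays, which took no part in the choice of members, were read in the same way. Here too the same scr arrays enter the differences of both hairpin lines, so the lines' agreement in sign is not independent. The 12 h minus 6 h difference had the sign of the response difference in 72 of the 84 positive members in sh14 (85.7%) and in 61 in sh133 (72.6%). Over all genes tested the shares of that sign were 49.8% and 46.3%. The members' medians were 0.28 and 0.18. For the 24 negative members it had that sign in 14 in sh14 (58.3%, all genes 50.2%) and in 18 in sh133 (75%, all genes 53.7%), with medians of -0.11 and -0.31. When 12 h stood for 22 h, 31 genes passed 2-fold, of which 21 were members, and when 6 h stood for 1 h, 34 passed, of which 14 were members; both of these cross the title dates in sh133.

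The 2-fold limit cuts through a continuous range. Just inside it lay Plek (1.00 and 1.46 in sh14 and sh133), Itgb3 (1.14 and 1.01) and Rnf32 (-1.04 and -1.01). Csf2rb (1.00 and 1.93, the first just short of 1), Acyp2 (-1.30 and -0.99) and Cytip (1.13 and 0.99) lay just outside. Another probe set was present for 47 members, 73 probe sets in all, and 62 of these had the sign of the brightest one in both lines. With the mean over probe sets 16 named members no longer passed 2-fold in both lines and 29 still did. Among the 16 the mean response difference of both lines went from 1.86 to 0.88 in Neat1, from 1.23 to 0.41 in Zbtb4, from 1.25 to 0.44 in Slc44a1, from 1.77 to 0.67 in Btn1a1 and from -2.22 to -0.54 in Csn1s2a. Also among the 16 were Siae (from 1.57 to 0.73), Smim14 (from 1.39 to 0.91) and Narf (from 1.09 to 0.71). Coa7, Me1, Thbs1, Nxpe2, Sync and Tmcc2 were among them as well. The second Neat1 probe set gave differences of -0.02 and -0.17. Members were about as bright as other genes (median log2 level 4.56, against 4.64 for all tested), and 6 of them had both end arrays of at least 1 line below the highest array median, where the size of a difference is uncertain.

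Immediate early genes had some of the most negative responses in scr. Egr1, a zinc finger factor of early growth factor signalling, had log2 signals of 9.49, 3.12, 2.63 and 2.55 at 1, 6, 12 and 22 h in scr. In sh14 they were 8.11, 3.12, 3.40 and 2.63, and in sh133 8.79, 3.85, 3.56 and 3.31. All 3 lines were far lower from 6 h onward, with responses of -6.94, -5.48 and -5.48. At 1 h both hairpin lines lay below scr, and from 6 h onward every sh133 array lay above every scr array.

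Jun, a subunit of the AP-1 factor, differed more in shape. In scr it went from 6.98 at 1 h to 4.77, 4.83 and 4.89. In sh14 the values were 6.42, 5.25, 5.89 and 5.74, and in sh133 6.30, 5.94, 5.99 and 6.44. From 6 h onward every hairpin array lay above every scr array, and in sh133 the signal at 22 h was no lower than at 1 h, with responses of -2.09, -0.69 and 0.14. The second Jun probe set gave differences of 1.44 and 1.97. Klf6, a Krüppel-like factor of the same early group, was at 6.76, 3.43, 3.01 and 3.48 in scr. It was at 6.23, 4.40, 4.09 and 4.43 in sh14 and at 6.28, 4.15, 4.10 and 4.65 in sh133, again above scr from 6 h onward. Its 3 other probe sets gave differences between 1.31 and 1.62.

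Within the list of 27 immediate early and ERK feedback genes, these 3 were the members, all positive, where 0.852% of all genes tested were members. The list's median responses were -1.26, -0.88 and -0.77. The differences were positive in 15 of the 27 in sh14 (55.6%) and in 17 in sh133 (63.0%), against 49.6% and 48.7% of all genes. The list was thus lower at 22 h in every line by its median, and the members are the 3 genes in which the difference between lines was past 2-fold. The slope test described further on called 1 of the 27 in sh14 (Klf6), where it called 2.79% of all genes. It called 0 of the 27 for both hairpins together, with 2414 of all genes at an unadjusted p under 0.05 for the latter.

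**Figure D3:**
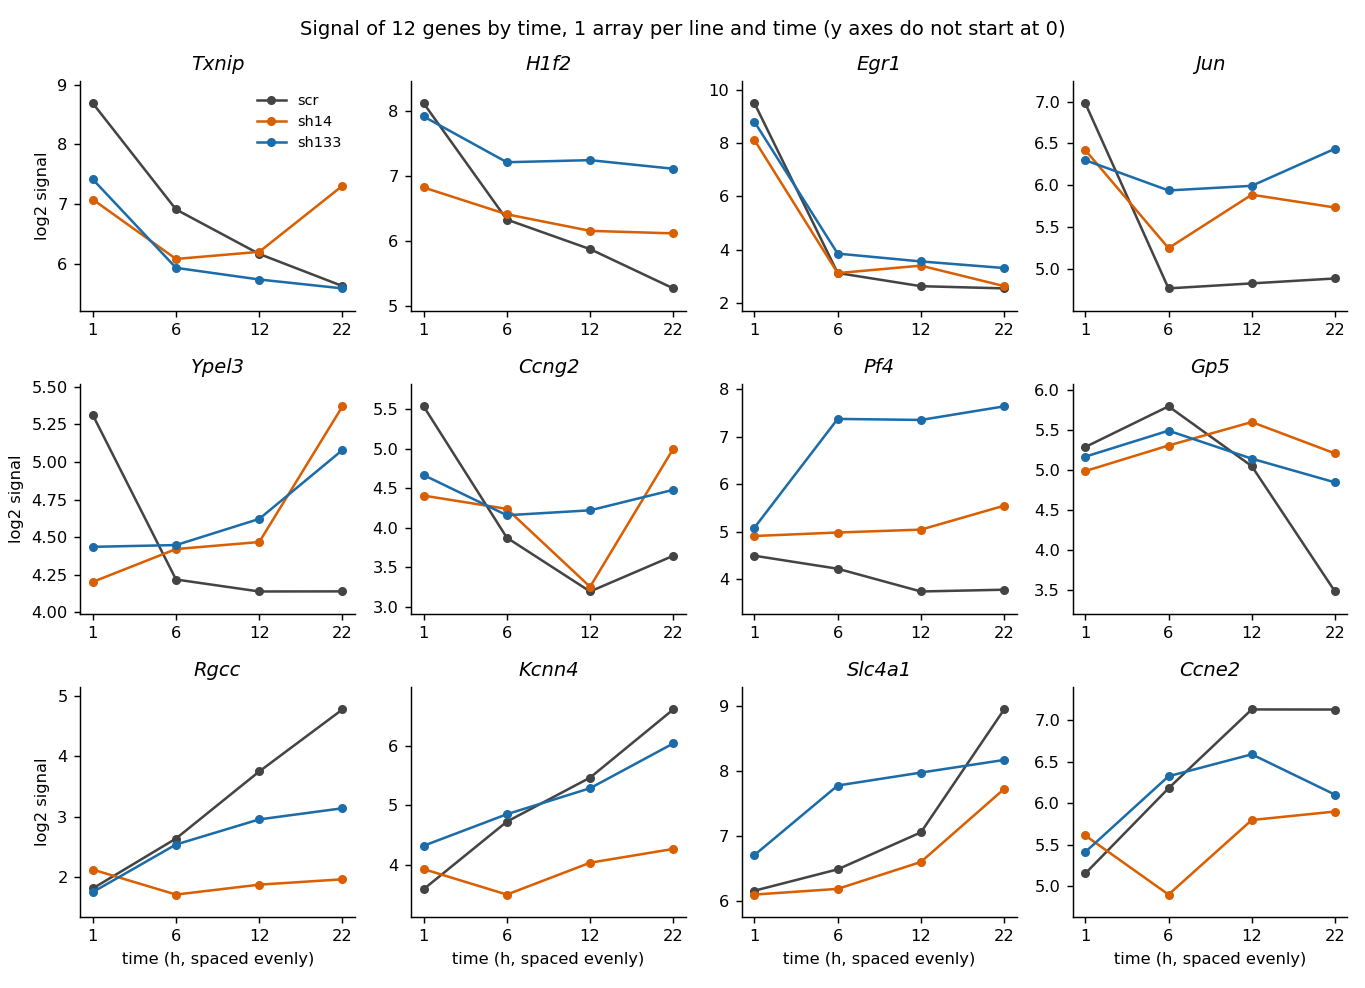
Log2 signal (y axes, not starting at 0) of 12 genes at 1, 6, 12 and 22 h (x axes, spaced evenly) in scr (dark), sh14 (orange) and sh133 (blue), with 1 array at each point. Jun, H1f2 and Ypel3 end above scr in both hairpin lines, Rgcc and Kcnn4 end below it, and Txnip ends at 5.62 in scr and 5.58 in sh133 after starts of 8.69 and 7.41.

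Txnip and H1f2, which are not of the early group, were also much lower at 22 h in scr. Txnip, whose product binds thioredoxin and limits glucose uptake, was at 8.69, 6.91, 6.16 and 5.62 in scr. In sh14 it was at 7.08, 6.08, 6.20 and 7.31, and in sh133 at 7.41, 5.93, 5.73 and 5.58. The responses of -3.07, 0.23 and -1.83 thus came about differently: sh14 ended above its start, while sh133 ended at the level of scr from a lower start. A second Txnip probe set gave differences of 3.46 and 1.60, beside 3.30 and 1.24. Its slope difference passed in sh14 (limma adjusted p = 0.0344) but not for both hairpins (0.0783) or in sh133 (0.44).

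H1f2, which encodes the linker histone H1.2, was at 8.11, 6.33, 5.87 and 5.27 in scr. It was at 6.82, 6.41, 6.15 and 6.11 in sh14, and at 7.91, 7.21, 7.24 and 7.11 in sh133. The hairpin lines kept most of their start level, with responses of -0.71 and -0.80 against -2.85, a difference of 4.41-fold and 4.12-fold. Its slope difference was 0.46 ± 0.04 (SE) log2 per doubling of hours for both hairpins together (limma adjusted p = 0.0308), and 0.47 and 0.46 in sh14 and sh133. Another H1f2 probe set gave 1.74 and 2.05, but one more gave -0.50 and -0.09.

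The 250 bases before the RefSeq start of these genes are shown because both were lower at 22 h in scr and ended above scr in sh14. Capitals mark matches, on either strand, to the forkhead motif TGTTTAC, the E-box CACGTG, the GATA motif AGATAA, the AP-1 motif TGANTCA or CCAAT (assembly GRCm38.p6, each written along the gene's own strand).
Txnip: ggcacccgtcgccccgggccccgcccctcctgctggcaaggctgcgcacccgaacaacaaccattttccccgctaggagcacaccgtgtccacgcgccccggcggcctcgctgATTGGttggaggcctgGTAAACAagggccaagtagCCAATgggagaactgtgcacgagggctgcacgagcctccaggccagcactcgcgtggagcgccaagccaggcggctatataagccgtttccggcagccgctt
H1f2: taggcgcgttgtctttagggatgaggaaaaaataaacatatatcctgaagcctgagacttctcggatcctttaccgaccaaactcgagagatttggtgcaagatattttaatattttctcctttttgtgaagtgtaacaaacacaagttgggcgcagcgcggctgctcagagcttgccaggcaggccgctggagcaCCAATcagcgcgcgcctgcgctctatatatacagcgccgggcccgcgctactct
The Txnip stretch is chr3:96557707-96557956 (+ strand) and the H1f2 stretch chr13:23738557-23738806 (+ strand). In Txnip a forkhead match lay at -121 to -115 from the start, between CCAAT matches at -137 to -133 and -102 to -98. In H1f2 the only match was CCAAT, also found in Txnip, at -54 to -50. A match is a string of letters and not a measured binding site.

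Of the members 66 positive and 16 negative ones had a promoter in the RefSeq table. Among the 66 the AP-1 motif was in 8 (12.1%, against 4.29% of 10219 tested genes with a promoter), the GATA motif in 6 (9.09% against 6.10%) and the forkhead motif in 2 (3.03% against 2.22%). The E-box was in 5 (7.58% against 8.40%) and CCAAT in 24 (36.4% against 36.2%). Among the 16 negative members the counts were 0 for AP-1 and forkhead, 3 for GATA, 1 for the E-box and 2 for CCAAT. These shares are counts of letters and carry no test.

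Other genes of the weaker class that were lower at 22 h in scr ranged from flat in a hairpin line to past 2-fold lower there too. Hhex, a homeobox factor of blood progenitors, was at 6.57, 5.23, 4.47 and 2.65 in scr, at 6.53, 5.85, 5.68 and 5.30 in sh14, and at 6.59, 5.60, 5.19 and 4.11 in sh133. The 3 lines started alike and were farthest apart at 22 h. Ephx2, the soluble epoxide hydrolase, had responses of -2.35, -0.65 and -0.67. Sncaip, which encodes synphilin-1, had -2.49, -0.47 and -1.0, the milk fat protein gene Btn1a1 -2.13, -0.30 and -0.42, and Eid2, an inhibitor of differentiation, -1.70, -0.02 and 0.44. Of these, Btn1a1, Sncaip, Ephx2 and Eid2 were farther from scr at 1 h than at 22 h in sh14: Btn1a1 was at 5.46 in scr and 2.50 in sh14 at 1 h, and at 3.33 and 2.20 at 22 h.

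Genes that were higher at 22 h in scr, and by less in the hairpin lines, included a channel, a cell cycle regulator and band 3. Rgcc, a regulator of the cell cycle, was at 1.81, 2.64, 3.75 and 4.78 in scr. In sh14 it was at 2.12, 1.71, 1.87 and 1.96, and in sh133 at 1.75, 2.54, 2.95 and 3.14. The lines lay close together at 1 h and scr was highest at 22 h, with responses of 2.97, -0.16 and 1.39. The slope difference was -0.52 ± 0.06 (SE) for both hairpins (limma adjusted p = 0.0308) and -0.68 in sh14 (adjusted p = 0.0142), and the second probe set gave -2.57 and -1.03.

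Kcnn4, the calcium-activated potassium channel that red cells know as the Gardos channel, was at 3.60, 4.73, 5.46 and 6.60 in scr. It was at 3.93, 3.51, 4.04 and 4.27 in sh14 and at 4.32, 4.85, 5.29 and 6.04 in sh133. In sh14 the 22 h array was little above the 1 h array, while sh133 ended below scr after starting above it. Its slope difference was -0.43 ± 0.05 (SE) for both hairpins (limma adjusted p = 0.0308).

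Slc4a1, the band 3 anion exchanger of the red cell membrane, was at 6.15, 6.48, 7.05 and 8.95 in scr, at 6.09, 6.18, 6.60 and 7.72 in sh14 and at 6.70, 7.78, 7.97 and 8.17 in sh133. It was higher at 22 h in all 3 lines and by the most in scr, where the step came between 12 h and 22 h. Its slope difference did not pass, and the second probe set gave -1.20 and -1.11, beside -1.17 and -1.33. Other positive responders of scr were Nxpe2 (2.99, 0.51 and 1.11), Ccne2, which encodes cyclin E2 (1.97, 0.29 and 0.69), and Syne3, which encodes nesprin-3 of the nuclear envelope (1.29, -0.29 and -0.27). Syne3 had a slope difference of -0.34 ± 0.04 (SE) for both hairpins (limma adjusted p = 0.0329).

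In the class of weaker or opposite responses sh14 usually turned upward and sh133 stayed near 0. Ccng2, an unconventional cyclin tied to cell cycle arrest, was at 5.54, 3.87, 3.19 and 3.65 in scr. It was at 4.41, 4.24, 3.25 and 5.00 in sh14 and at 4.67, 4.16, 4.22 and 4.48 in sh133. All 3 lines were lower at 6 h than at 1 h, and sh14 alone came back above its start, with responses of -1.89, 0.59 and -0.19. Aldoc, an aldolase isoform of glycolysis, had responses of -1.96, 1.27 and -0.01; sh14 stood at 3.14 at 1 h, where scr stood at 7.59, and reached 4.41 at 22 h, where scr stood at 5.62. Trp53inp1, a known p53 target in cells that have p53, had -1.81, 1.05 and -0.16.

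Other genes of this class had the same order, with scr lowest, or turned more in sh133. Tcp11l2 had responses of -1.48, 1.17 and -0.08 in scr, sh14 and sh133, Gdpd3 had -1.49, 0.94 and -0.22, Ypel2 had -1.47, 0.81 and -0.21, and Neat1, the long RNA of paraspeckles, had -1.39, 1.07 and -0.13. Siae, a sialic acid esterase, had -0.98, 0.95 and 0.23. In Aqp8, a water channel (-1.60, 0.08 and 0.71), Smim14 (-0.87, 0.33 and 0.70) and Scin, an actin-severing protein (-0.84, 0.50 and 1.02), sh133 turned more than sh14. Past the slope test for both hairpins were Aqp8 (0.45 ± 0.07 SE, limma adjusted p = 0.048), Gdpd3 (0.39 ± 0.05, 0.0326), Ypel2 (0.39 ± 0.04, 0.0308), Siae (0.33 ± 0.04, 0.0384) and Smim14 (0.31 ± 0.04, 0.0326).

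The 11 genes that went the opposite way in both hairpin lines included genes of monoamine handling and the platelet chemokine Pf4. Ypel3, of the Yippee-like family and linked to growth arrest, was at 5.31, 4.22, 4.14 and 4.14 in scr. It was at 4.20, 4.42, 4.47 and 5.37 in sh14 and at 4.44, 4.45, 4.62 and 5.08 in sh133. Scr was highest of the lines at 1 h and lowest at 6, 12 and 22 h, and both hairpin lines were highest at 22 h. The slope difference was 0.44 ± 0.05 (SE) for both hairpins (limma adjusted p = 0.0308).

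Tph1, the first enzyme of serotonin synthesis outside the brain, was at 6.38, 6.67, 6.07 and 5.65 in scr. In sh14 it was at 4.15, 5.09, 6.00 and 8.28, and in sh133 at 5.87, 4.89, 5.12 and 6.52. Its response of 4.13 in sh14 was 17.6-fold, against 0.64 in sh133, where the 6 h and 12 h arrays lay below the 1 h array. Slc18a2, the vesicular monoamine transporter that loads serotonin and histamine into granules, had responses of -0.83, 1.16 and 1.19. Neither gene passed the slope test for both hairpins (adjusted p = 0.134 and 0.0533).

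Tent5c, a poly(A) polymerase, had responses of -0.55, 0.92 and 1.18 and passed the slope test (0.37 ± 0.04 SE, limma adjusted p = 0.0326). The Src-like adaptor gene Sla had -1.26, 0.96 and 0.52, Uba7, the activating enzyme of ISG15, -0.96, 1.29 and 0.61, and the dynein gene Dnah2 -0.81, 0.62 and 1.32. Rcvrn, which encodes recoverin, had -0.58, 0.75 and 0.53. The 2 genes with a positive response in scr were Trmt61a, a tRNA methyltransferase (0.56, -0.90 and -0.63; slope -0.28 ± 0.04 SE, limma adjusted p = 0.0451), and Coa7, an assembly factor of cytochrome oxidase (0.58, -1.02 and -0.54).

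Among 16 megakaryocyte and platelet genes tested, 5 were members, all positive: Pf4, Gp5, Itga2b, Itgb3 and Plek. Over all genes tested 0.852% were members and 0.663% positive ones. Pf4, the chemokine platelet factor 4, was at 4.49, 4.22, 3.74 and 3.78 in scr, at 4.91, 4.98, 5.04 and 5.55 in sh14, and at 5.08, 7.37, 7.35 and 7.64 in sh133. Every hairpin array lay above every scr array, and sh133 stepped up between 1 h and 6 h, where its title date also changes, and was still at 7.64 at 22 h, on an array of the same date as 1 h. The slope difference was 0.50 ± 0.06 (SE) for both hairpins (limma adjusted p = 0.0308) and 0.71 ± 0.06 in sh133 (adjusted p = 0.0279).

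Gp5, which encodes platelet glycoprotein V, behaved differently. It was at 5.28, 5.79, 5.04 and 3.48 in scr, at 4.98, 5.30, 5.59 and 5.20 in sh14, and at 5.16, 5.49, 5.14 and 4.84 in sh133. The lines lay close together up to 12 h, and at 22 h the scr array stood below the other two. Itga2b, the integrin αIIb gene, had responses of -1.0, 0.45 and 0.08, its partner Itgb3 -1.13, 0.01 and -0.12, and Plek, the platelet substrate of protein kinase C, -1.26, -0.26 and 0.20. Other probe sets of Itgb3 (-0.32 and -0.79) and of Plek (-0.21 and 1.27) disagreed with the brightest, while another of Plek gave 1.29 and 1.89.

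For the platelet list as a whole the median responses were 0.00, 0.18 and 0.14, and the response differences were positive in 12 of 16 in sh14 and in 10 in sh133, against 49.6% and 48.7% of all genes. The summed linear signal of the 18 list genes on the array went from 729.6 to 573.4 in scr, from 853.3 to 1069.5 in sh14 and from 828.2 to 1117.5 in sh133. Ppbp, Selp and Clec1b were below the highest array median on all arrays. The summed signal of the mast cell markers was lower at 22 h in all 3 lines, from 1017.5 to 199.8, from 589.0 to 284.6 and from 760.0 to 175.4, but 5 of the 10 tested had a positive response in each line and the medians were -0.13, -0.07 and -0.20. The bright genes Hdc, which encodes the enzyme that makes histamine (-3.50, -2.58 and -3.78), and Kit (-1.70, -0.58 and -1.72) were lower, while the dim protease gene Mcpt1 had 0.86, 1.57 and 1.76. None of the 10 was a member, and their part in the results was not tested.

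The promoters of Pf4 and Gp5 are given for the same 250 bases, since both encode platelet proteins, with the same use of capitals.
Pf4: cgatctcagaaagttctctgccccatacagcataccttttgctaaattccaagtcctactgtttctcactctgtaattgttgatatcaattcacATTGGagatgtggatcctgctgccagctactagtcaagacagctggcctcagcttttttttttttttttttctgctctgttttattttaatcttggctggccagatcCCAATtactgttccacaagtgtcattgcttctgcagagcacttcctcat
Gp5: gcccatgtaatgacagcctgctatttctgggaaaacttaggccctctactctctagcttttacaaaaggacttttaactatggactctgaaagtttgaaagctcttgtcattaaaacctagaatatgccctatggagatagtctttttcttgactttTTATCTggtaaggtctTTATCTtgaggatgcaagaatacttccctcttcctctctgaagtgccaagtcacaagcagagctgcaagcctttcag
The Pf4 stretch is chr5:90772185-90772434 (+ strand) and the Gp5 stretch chr16:30310782-30311031 (- strand). Gp5 held GATA matches at -93 to -88 and -77 to -72, and Pf4 held CCAAT matches at -156 to -152 and -49 to -45 and no match to the exact string AGATAA.

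Among the genes flat in scr, Csn1s2a had the largest smaller difference, followed by Olfm3. Csn1s2a, a casein gene and a STAT5 target in mammary cells, was at 5.52, 6.71, 6.59 and 5.10 in scr. It was at 5.91, 6.08, 6.18 and 3.60 in sh14, and at 4.60, 1.96, 1.90 and 1.63 in sh133. In sh133 it was low from 6 h onward and in sh14 at 22 h alone, and the responses were -0.42, -2.32 and -2.96. The slope difference for both hairpins was -0.45 ± 0.07 (SE, limma adjusted p = 0.0451), but with 6 h in place of 1 h the mean response difference was 0.20, of the other sign. Csn1s2a was the only one of the 19 STAT5 target genes among the members.

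Thbs1, which encodes the matrix protein thrombospondin-1, was between 1.29 and 1.61 in scr, near background. It went from 1.04 to 2.71 in sh14 and from 1.01 to 3.29 in sh133. Other positive members of this class were Tmcc2 (0.33, 1.56 and 1.73), Ndrg2 (0.06, 1.51 and 1.27), the choline transporter gene Slc44a1 (-0.03, 1.33 and 1.11), Il1bos (0.03, 1.29 and 1.66), Ccdc68 (-0.37, 1.80 and 0.71), Narf (-0.11, 0.99 and 0.97) and the zinc finger gene Zbtb4 (-0.29, 0.79 and 1.07). Negative ones were Olfm3 (0.04, -1.79 and -1.80), Lrp11 (0.12, -1.35 and -1.13) and Me1, which encodes cytosolic malic enzyme (0.35, -0.79 and -0.85). Olfm3 was at background in scr, between 0.75 and 0.90, and went from 3.08 to 1.29 in sh14 and from 3.03 to 1.23 in sh133.

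Klf10, a Krüppel-like factor induced by TGFβ, had the more negative response in both hairpin lines. It was at 4.93, 3.97, 4.17 and 4.35 in scr, at 5.18, 3.58, 3.80 and 2.70 in sh14 and at 4.94, 3.82, 3.69 and 3.29 in sh133. All lines were lower at 6 h than at 1 h, after which the scr arrays were higher and the 22 h arrays of the hairpin lines lower still. The predicted gene Gm20161, named after its values were seen, had responses of 1.63, 3.47 and 3.59.

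Replication genes were higher at 22 h than at 1 h in scr and by less, or not at all, in the hairpin lines. Over 46 genes of S phase and replication the median responses were 0.59 in scr, -0.02 in sh14 and 0.11 in sh133, with 45, 22 and 30 of the 46 positive. The response difference was negative in 45 of 46 genes in each hairpin line, where 50.4% and 51.3% of all genes were negative, with medians of -0.62 and -0.53. The differences were mostly below 2-fold, so that only Ccne2 and Uhrf1, a cofactor of DNA methylation maintenance, were members. Rfc2, a clamp loader subunit, was the exception in both lines (0.51, 0.73 and 0.53).

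**Figure D4:**
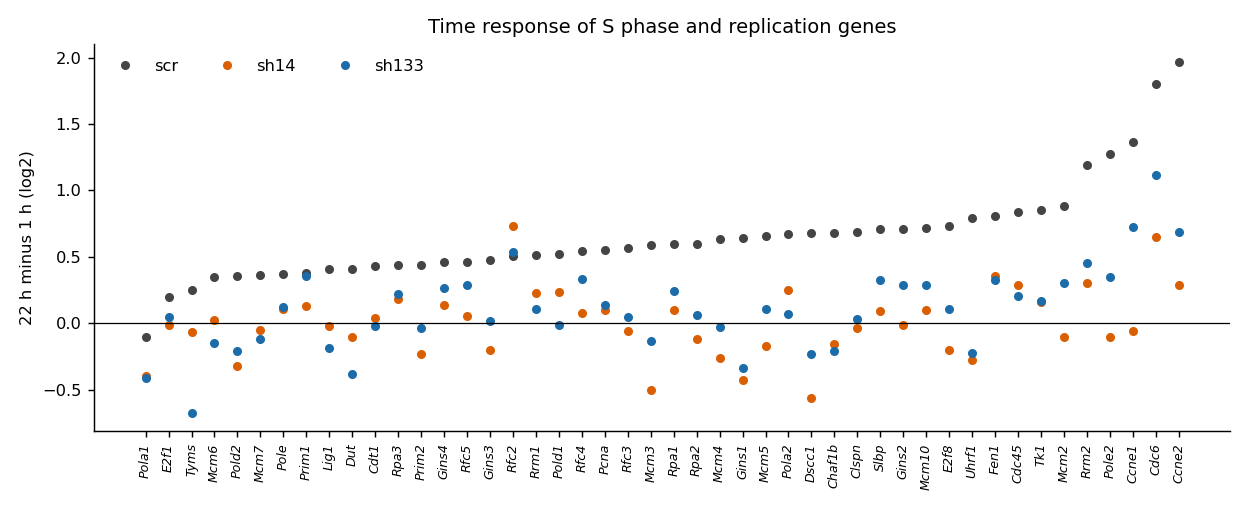
Response of each of 46 S phase and replication genes (x axis, ordered by scr), 22 h minus 1 h in log2 signal (y axis), in scr (dark), sh14 (orange) and sh133 (blue), each point the difference of 2 arrays. The dark points run from -0.10 for Pola1 to 1.97 for Ccne2 and lie above both coloured points in every gene but Rfc2.

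Single replication genes followed the list. Ccne2 was at 5.15, 6.18, 7.13 and 7.13 in scr, at 5.61, 4.90, 5.80 and 5.90 in sh14 and at 5.41, 6.32, 6.59 and 6.10 in sh133. Uhrf1 was at 7.14, 7.29, 8.19 and 7.94 in scr, at 7.42, 6.67, 7.24 and 7.14 in sh14 and at 7.49, 7.33, 7.41 and 7.27 in sh133. In both genes scr was lowest at 1 h and highest at 12 h and 22 h. The other cyclin E gene, Ccne1, had responses of 1.36, -0.06 and 0.72, the origin licensing factor Cdc6 1.80, 0.65 and 1.12, the helicase subunit Mcm2 0.88, -0.10 and 0.30, and the polymerase subunit Pole2 1.27, -0.10 and 0.35. On the 6 h and 12 h arrays the list's median differences were -0.37 in sh14 and -0.40 in sh133. The slope test called 5 of the 46 in sh14, all negative (Mcm2, Mcm3, Cdc6, Pole2 and Ccne1), where it called 2.79% of all genes, 70 of 12673 as negative. It called 0 of the 46 for both hairpins together or for sh133 (2414 and 1572 of all genes were at an unadjusted p under 0.05 in these comparisons).

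Over 52 genes of G2-M and mitosis the median responses were 0.51, 0.14 and 0.37. The response difference was negative in 49 in sh14 (94.2%) and in 38 in sh133 (73.1%), against 50.4% and 51.3% of all genes. Kif20a, a mitotic kinesin, was the only member (0.92, -0.14 and -0.21). Ribosome biogenesis and MYC genes had medians of 0.02, -0.34 and -0.27, with 31 of 40 differences (77.5%) negative in each line and no member. In the same list Mxd4, an antagonist of MYC, went the other way in sh14 (-1.15, 1.25 and -0.36; slope 0.34 ± 0.04 SE for both hairpins, limma adjusted p = 0.0397). Among 20 CDK inhibitors and D cyclins Ccng2 was the only member.

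**Figure D5:**
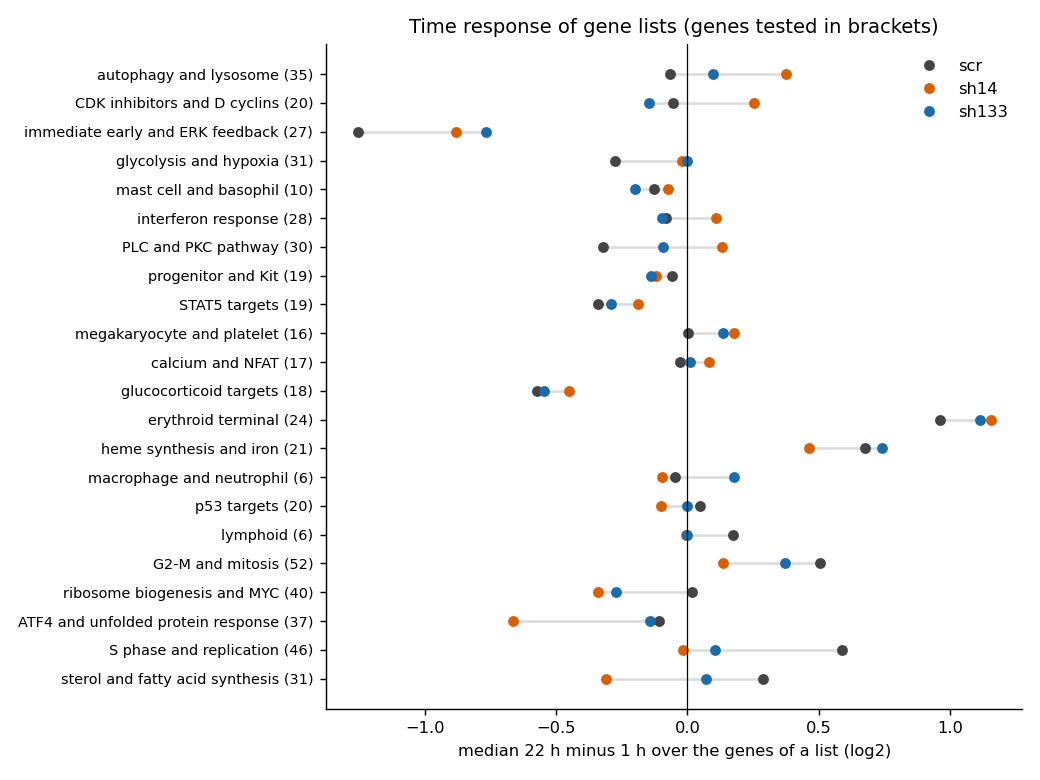
Median response, 22 h minus 1 h in log2 signal (x axis), over the genes of each of 22 lists (y axis, number of genes tested in brackets), in scr (dark), sh14 (orange) and sh133 (blue). The widest spreads between lines are those of S phase, sterol and ATF4 genes, while the erythroid list lies at 0.96, 1.16 and 1.12.

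Terminal erythroid genes were mostly higher at 22 h in all 3 lines. Over 24 of them the median responses were 0.96 in scr, 1.16 in sh14 and 1.12 in sh133, with 22, 24 and 24 positive. Slc4a1 was the only member. Alas2, the erythroid enzyme that starts heme synthesis, had responses of 1.32, 2.45 and 2.27, and Fech, which inserts the iron, -0.08, 1.03 and 0.74. Over 21 heme and iron genes the medians were 0.68, 0.46 and 0.74, with no member. Among 19 progenitor genes Hhex was the only member.

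The median responses of sterol and fatty acid synthesis genes were 0.29, -0.31 and 0.07 over 31 genes, with no member. The response difference was negative in 26 in sh14 (83.9%) and in 25 in sh133 (80.6%), against 50.4% and 51.3% of all genes. The sterol isomerase gene Ebp had 0.86, -0.39 and 0.20, and the desaturase gene Sc5d 0.35, -0.83 and -0.14. Genes of ATF4 and the unfolded protein response had medians of -0.11, -0.67 and -0.14 over 37 genes: 29 differences were negative in sh14 (78.4%) and 11 in sh133 (29.7%). Creld2, induced by that response, had 0.47, -0.92 and -0.39, and the chaperone gene Calr 0.70, -0.55 and 0.12. Both were called in sh14 by the slope test, which called 2.79% of all genes there.

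Autophagy and lysosome genes ran the other way from replication. Their median responses were -0.07, 0.37 and 0.10 over 35 genes. Differences were positive in 28 in sh14 (80%) and in 27 in sh133 (77.1%), against 49.6% and 48.7% of all genes. The cargo receptor gene Sqstm1 was the only member (-0.89, 0.39 and 0.19). Glycolysis and hypoxia genes had medians of -0.28, -0.02 and 0.00 over 31 genes, with 23 positive differences (74.2%) in each line and Aldoc as the only member. Trp53inp1 was the only member among 20 p53 target genes.

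The PLC and PKC list, of the pathway of Plcg1 itself, held no member, where 0.852% of all genes tested were members. At that share a list of its size or smaller would mostly hold none, so this says little about the pathway. Over 30 PLC and PKC genes the median responses were -0.32, 0.13 and -0.09. Differences were positive in 22 in sh14 (73.3%) and in 16 in sh133 (53.3%), against 49.6% and 48.7% of all genes. The genes with the largest mean difference were Dgka, a diacylglycerol kinase (-0.65, 0.31 and 0.24), and Prkcd, protein kinase C delta (-0.85, 0.14 and -0.25). Plcg1 was at 4.74, 4.45, 4.61 and 4.31 in scr, at 4.16, 3.86, 4.27 and 4.30 in sh14 and at 4.53, 4.35, 4.37 and 4.39 in sh133. At 1 h both hairpin lines were below scr, and at 22 h sh14 was level with scr and sh133 slightly above it. Calcium and NFAT genes (17), glucocorticoid targets (18) and interferon response genes (28) had no member either, with median differences of 0.15 and 0.06, 0.15 and 0.29, and 0.22 and 0.08 in sh14 and sh133. The glucocorticoid target Tsc22d3 had responses of -1.06, -0.27 and -0.09. In all, 11 of 22 lists held at least 1 member, where 0.852% of all genes tested were members.

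Receptor and regulator genes of the erythroid lineage were compared by their responses. Kit had -1.70, -0.58 and -1.72 and Myb -1.0, -0.37 and -0.99, with sh133 close to scr and sh14 nearer to 0. Klf1 had 1.41, 1.32 and 1.02, Gata1 0.59, 0.81 and 0.82, and Epor 0.43, 0.76 and 0.60. Jak2 had -0.60, 0.03 and -0.25, Stat5b -0.79, -0.08 and -0.46, Stat5a -0.57, -0.40 and -0.55, and Plcg2 -0.40, -0.53 and -0.52. None of these was a member.

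A limma fit over all 12 arrays tested the difference in slope on log2 hours between each hairpin line and scr, with line, time and title date as terms and 3 residual degrees of freedom. At an adjusted p of 0.05 (Benjamini-Hochberg over 12673 genes) it called 48 genes for both hairpins together (0.379%), 37 with a positive and 11 with a negative slope difference. In sh14 it called 354 (2.79%), 284 positive and 70 negative, and in sh133 it called 3 (0.0237%), all positive. With each array centred on its median the splits were 66 positive to 40 negative for both hairpins and 183 to 131 for sh14. At an unadjusted p under 0.05 there were 2414, 2775 and 1572 genes. The median standard error was 0.042 for both hairpins, 0.048 for sh14 and 0.049 for sh133, in log2 per doubling of hours. Of the 108 members, 31 were called for both hairpins, 62 in sh14 and 2 in sh133; the fit uses the arrays that chose them, so these counts are a description.

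The number of calls changed when single arrays were left out. Without the 1 h, 6 h or 22 h array of scr, the 1 h array of sh14 or the 1 h or 22 h array of sh133, 0 genes were called for both hairpins by limma (1481, 2265, 1572, 2113, 556 and 556 at an unadjusted p under 0.05), and without any other array 1 to 12. Leaving out the 1 h or the 22 h array of sh133 gives the same fit, because title date varies within sh133 alone and its slope then rests on 6 h and 12 h. The median standard error for both hairpins was 0.113 in that fit, 0.103 without the 1 h array of scr and 0.041 without its 6 h array. With all arrays that standard error was 0.042, so it had not grown without the 6 h array of scr. Leaving out an array also cut the residual degrees of freedom from 3 to 2. How far lost precision or the array left out made for each loss of calls was not tested. For sh14 the calls ended without the scr arrays at 1, 6 or 22 h and the sh14 arrays at 1 or 22 h, and 45 to 286 were left without any of the others. With no repeat of any line and time, the spread behind these tests is what the additive terms leave. The spread from culture to culture is not part of it.

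Called genes outside the 2-fold count included Lgals3, which encodes the lectin galectin-3 (responses -2.09, 0.24 and -1.18; slope 0.38 ± 0.06 SE for both hairpins, limma adjusted p = 0.0451), and Neto2 (1.21, -0.46 and 0.34; -0.29 ± 0.04, 0.0465). In sh14 Mapt, which encodes tau, was called (-1.71, 0.60 and -1.27; slope 0.52 ± 0.06 SE, limma adjusted p = 0.0193), and Tmem109 with the opposite sign (1.09, -0.69 and 0.26; -0.39 ± 0.06, 0.0319). For sh133 the 3 calls were Pf4, H1f2 and the chemokine gene Cxcl3. Cxcl3 was at background in scr and sh14, between 0.22 and 0.90, and at 0.85, 5.03, 5.51 and 3.88 in sh133.

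The contrast of sh14 with sh133 is the one that leaves scr out of the difference. It called 2 genes (0.0158%), with 1577 at an unadjusted p under 0.05. Cxcl3 had a slope difference of -0.66 ± 0.06 (SE) and Lxn, the carboxypeptidase inhibitor latexin, of 0.49 ± 0.04 (limma adjusted p = 0.0346 for both). Lxn was at 1.66, 2.14, 2.01 and 2.02 in sh14, at 4.43, 4.31, 3.75 and 2.61 in sh133, and between 1.79 and 2.27 in scr. At 1 h sh133 stood at a level that neither of the other lines had. Among the genes of smallest p that did not pass were Dusp6, a phosphatase of ERK (responses -2.22, -0.83 and -2.99), Pik3ip1 (-2.14, -0.27 and -2.27) and Mc1r (-0.31, 2.09 and -0.02), in all of which the response of sh14 was the highest (limma adjusted p = 0.1 for each). In Stc2 (-0.27, -0.77 and 0.54, limma adjusted p = 0.1) and Lzts3 (0.10, -0.45 and 1.25, adjusted p = 0.11) that of sh133 was the highest.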

How the data were processed

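Per the labels' protocols, amplified material from each of 12 I/11 samples went onto its own Affymetrix Mouse430_2 array. The authors deposited log2 signals per probe set. The submitters' processing notes name RMA, and its version is not given in the sources. RMA equalises the arrays' distributions, so differences in total RNA per cell are lost. Depth does not apply to arrays, and their number limits the precision.

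Of 45101 probe sets 34958 had 1 gene in the platform annotation, 932 had several and 9211 none. The brightest probe set stood for each of 18194 genes, and means under the 40th percentile (log2 1.45) were left out, which left 12673. Responses, differences and classes were computed from these, and limma 3.58.1 (R 4.3.3) gave the slope tests, which were checked on simulated data. Figures used Python 3.11.15. The members, 18 gene lists and 4 marker lists were chosen with earlier results of these data known. The text names 10 fixed genes, up to 12 members of each class by the smaller of their differences (1 log2 above the highest array median on some array, no predicted genes), up to 8 genes for each slope comparison and direction or the 5 of smallest p, and list members. From some lists with no member 1 or 2 of the 2 genes of largest mean difference are named. Hdc and single replication genes other than members were chosen after their values were seen. Alternatives are in the closing section. Sequences are from RefSeq.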

Additional observations from a re-analysis of the deposited data

Results flagged for a closer look

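These results are given because the slope or the response differed between lines, with slope differences in log2 per doubling of hours from limma, all at an adjusted p of 0.05 or below. For both hairpins against scr they were 0.50 for Pf4, 0.46 for H1f2, 0.45 for Aqp8, 0.44 for Ypel3, 0.43 for Btn1a1, 0.39 for Ypel2, 0.39 for Gdpd3 and 0.38 for Lgals3. Those with a negative sign were -0.52 for Rgcc, -0.45 for Csn1s2a, -0.43 for Kcnn4, -0.34 for Syne3, -0.29 for Neto2, -0.28 for Trmt61a, -0.24 for Aunip and -0.24 for Megf9.

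For sh14 against scr the slope differences were 0.66 for Txnip, 0.64 for Aldoc, 0.53 for Lgals3, 0.53 for Hhex, 0.53 for Tcp11l2, 0.53 for Crebrf, 0.52 for Mapt and 0.52 for Ypel2. Negative ones were -0.68 for Rgcc, -0.57 for Kcnn4, -0.39 for Tmem109, -0.38 for Neto2, -0.37 for Xpo4, -0.37 for Csn1s2a, -0.35 for Susd2 and -0.35 for Mlf1. For sh133 against scr they were 0.71 for Pf4, 0.68 for Cxcl3 and 0.46 for H1f2. Between sh14 and sh133 they were 0.49 for Lxn and -0.66 for Cxcl3.

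In 11 genes both hairpin responses had the sign opposite to that of scr, and this difference was not tested. The scr responses were 0.58 for Coa7, 0.56 for Trmt61a, -0.81 for Dnah2, -0.72 for Pf4, -0.58 for Rcvrn, -1.26 for Sla, -0.83 for Slc18a2, -0.55 for Tent5c, -0.73 for Tph1, -0.96 for Uba7 and -1.17 for Ypel3. The 4 arrays of a line differ in time, so no array was tested as an outlier.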

How the results depend on the processing

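The 108 genes past 2-fold in both hairpin lines became 71 with the mean over probe sets (59 of them members), 757 at 1.5-fold, 15 at 3-fold, 31 with 12 h in place of 22 h and 34 with 6 h in place of 1 h. Other settings gave 89 to 109, and a stricter signal filter, chosen after seeing the data, gave 104. With 6 h in place of 1 h the mean response difference of Csn1s2a was 0.20, of the other sign.

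Slope calls for both hairpins (48) became 143 with no title date term, 1 with slopes on log2 hours only, 119 with slopes on hours, 4 with 1 common slope, 240 with the 60th percentile filter, 159 with the mean over probe sets and 106 with arrays centred on their medians. For sh14 (354) they became 16 with slopes on log2 hours only and 679 with the 60th percentile filter. For sh133 (3) they became 1 with no title date term, 1 with slopes on log2 hours only and 1 with slopes on hours. Between sh14 and sh133 (2) they became 0 with no title date term, 0 with slopes on log2 hours only, 7 with slopes on hours and 0 with the 60th percentile filter, where limma gave 1627, 989, 1561 and 1342 genes at an unadjusted p under 0.05.

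Leaving out 1 array at a time gave 0 to 12 calls for both hairpins, 0 to 286 for sh14, 0 to 2 for sh133 and 0 to 1 between the hairpin lines. The Lzts3 slope difference between them was 0.065 without the 1 h or the 22 h array of sh133, which give the same fit, and -0.39 without the 22 h array of sh14. The causes were not tested. No paired analysis was possible because the numbers of the samples within a line follow deposit order and its arrays differ in time. With 1 array for each line and time, no response has a replicate error.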
